A study of Homo sapiens with 2 samples.

Results

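Expression and transcript composition of 7 genes of epithelial splicing were examined in the RNA-seq data of H2087 and H596 cells. The genes were the regulators ESRP1, ESRP2, RBFOX2 and QKI and the spliced target genes CD44, ENAH and CTNND1. They were chosen by gene symbol, and every transcript listed under these symbols was used. This gave 7 of the 27685 genes and 61 of the 63714 transcripts of the deposited tables.

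Most genes of multicellular animals give rise to several mRNAs, because RNA-binding proteins decide which alternative exons are joined to the mature transcript. ESRP1 and ESRP2 are RNA-binding proteins found mainly in epithelial cells, where they favor epithelial forms of CD44, ENAH, CTNND1 and the FGF receptors. RBFOX2 and QKI are expressed more widely, and they act on many exons that are also switched during epithelial to mesenchymal transition. CD44 encodes a receptor for hyaluronan, ENAH encodes the actin regulator Mena, and CTNND1 encodes p120-catenin, which stabilizes cadherins at cell junctions. In each of the target genes, one set of forms is known as typical of epithelial cells and another as typical of mesenchymal or motile cells.

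H2087 and H596 are established human cell lines, both labelled as lung adenocarcinoma and both left untreated. The 2 groups had 1 library each of poly(A)-selected, strand-specific mRNA. The total estimated count was 46961500 in H2087 and 55387847 in H596. With 1 library per cell line, no difference has a replicate check, no test between the cell lines could be made, and every interval given covers counting error only. The values describe these libraries, and cell line, culture and library preparation cannot be told apart.

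Alternative exons whose shares are reported are shown first. They are the reference sequence of GRCh37 (the hg19 genome), read 5′ to 3′ along the mRNA, with the exon in capitals and 10 intronic bases on each side in lower case. The exons came from GENCODE release 44 transcripts whose length, adjusted to the ends of a listed transcript, equalled the listed length. The listed transcript had to reach both end exons of the GENCODE transcript, and its exons were inferred from this match. All exons shown are coding. ENAH exon 11a, of 63 bases and 21 residues, marks the epithelial form of Mena and lies on the minus strand at chr1:225692693-225692755. CD44 exon v3, of 126 bases, opens the block v3 to v7 that differed most between the libraries and lies on the plus strand at chr11:35219668-35219793. CD44 exon v8, of 102 bases, opens the block v8 to v10 and lies on the plus strand at chr11:35229652-35229753. CTNND1 exon B, of 87 bases and 29 residues, lies on the plus strand at chr11:57583387-57583473. The RBFOX2 exon of 40 bases, which sets forms of the downstream start apart, lies on the minus strand at chr22:36152152-36152191 and, with a length that is no multiple of 3, changes the reading frame behind it.
ENAH 11a: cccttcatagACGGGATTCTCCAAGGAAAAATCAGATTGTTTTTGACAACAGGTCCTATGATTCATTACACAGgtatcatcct
CD44 v3: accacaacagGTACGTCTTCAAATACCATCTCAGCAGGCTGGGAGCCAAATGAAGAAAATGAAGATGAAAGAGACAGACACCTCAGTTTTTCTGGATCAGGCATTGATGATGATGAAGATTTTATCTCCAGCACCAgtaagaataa
CD44 v8: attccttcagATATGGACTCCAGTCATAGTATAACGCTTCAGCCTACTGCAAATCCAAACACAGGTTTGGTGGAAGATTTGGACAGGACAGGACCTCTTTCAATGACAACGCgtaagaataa
CTNND1 exon B: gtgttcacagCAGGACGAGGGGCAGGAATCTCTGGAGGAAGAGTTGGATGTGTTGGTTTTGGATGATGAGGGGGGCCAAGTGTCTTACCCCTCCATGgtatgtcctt
RBFOX2 exon of 40 bases: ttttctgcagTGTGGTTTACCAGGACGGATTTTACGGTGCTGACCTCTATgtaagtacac

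The introns beside these exons were searched for the letters TGCATG, known to be bound by RBFOX proteins, ACTAAC, known to be bound by QKI, and TGGTGG, a repeat of the kind bound by ESRP proteins. Windows of 300 bases upstream and downstream of each exon were read on the mRNA strand and on the opposite strand. TGGTGG can overlap itself in steps of 3 bases, and each overlapping match was counted. Among 189562 internal exons of protein-coding transcripts, TGCATG was found in 8.58% of the upstream and 8.90% of the downstream windows on the mRNA strand. The same shares were 3.49% and 3.25% for ACTAAC and 13.3% and 14.9% for TGGTGG. The shares on the opposite strand lay between 4.18% and 10.6%. A match is a description of the sequence and not a site of binding.

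Upstream of CTNND1 exon B, ACTAAC occurred 3 times and TGCATG once, and the nearest copies lay 20 and 10 bases from the exon. Downstream of CD44 exon v8, TGGTGG occurred 2 times in overlap, and downstream of exon v9 it occurred 3 times. These stretches, with the motifs in capitals, are shown as examples because they hold copies of more than 1 motif or lie beside exons with several copies. They lie on the plus strand at chr11:57583342-57583386, chr11:35229817-35229862 and chr11:35231657-35231702, in this order.
upstream of CTNND1 exon B: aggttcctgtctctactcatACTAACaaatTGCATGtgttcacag
downstream of CD44 v8: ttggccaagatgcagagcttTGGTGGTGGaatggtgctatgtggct
downstream of CD44 v9: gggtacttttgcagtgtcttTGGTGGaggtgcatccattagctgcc

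Upstream of CD44 exon v10, TGGTGG occurred once, 50 bases from the exon, and TGCATG occurred 222 bases downstream of it. TGCATG also lay 8 bases upstream of exon v7. In the windows of exons v2 to v6, none of the motifs was found on the mRNA strand. The windows of ENAH exon 11a held none of the motifs on either strand, which says only that these letters are not in this window. Upstream of the RBFOX2 exon of 40 bases, TGCATG lay 78 bases away. Beside CTNND1 exon C, of 18 bases, TGGTGG occurred 10 times upstream, mostly in 1 run of repeats, and TGCATG occurred 2 times downstream.

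All 7 genes were expressed in both libraries, and their order by level was the same. Levels are given in FPKM, which corrects for transcript length and library size and so allows levels of different genes to be compared. In H2087, CTNND1 was highest at 69.7 FPKM, followed by ESRP1 at 47.8, CD44 at 43.4, ESRP2 at 19.3, RBFOX2 at 14.6, ENAH at 9.74 and QKI at 4.29 FPKM. In H596, CTNND1 was at 126 FPKM, ESRP1 at 54.5, CD44 at 29.0, ESRP2 at 19.5, RBFOX2 at 16.8, ENAH at 10.1 and QKI at 8.25 FPKM. No neighbors in this order had overlapping 95% Wilson intervals. In bulk libraries such as these, fewer cells that express a gene and less RNA per cell cannot be told apart.

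**Figure D1:**
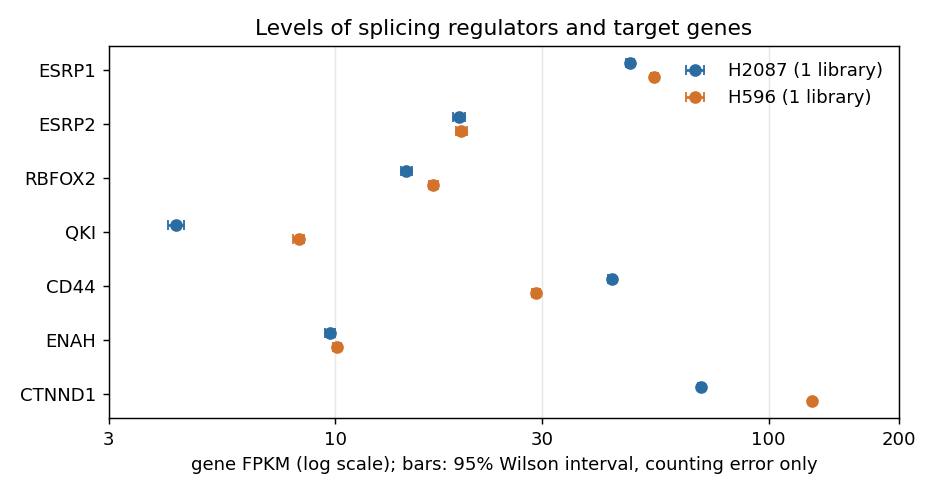
Gene level of the 7 genes in FPKM (horizontal axis, log scale) in H2087 (blue) and H596 (orange), 1 library each. Bars are 95% Wilson intervals that cover counting error only and are mostly hidden by the points, which lie far apart for QKI, CD44 and CTNND1 and side by side for ESRP2 and ENAH.

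A difference was called at 2-fold on the scale of log2(FPKM + 1), where the mean FPKM of a gene reached 1. By this rule 0 of the 7 genes differed, while 4226 of 13047 genes did (32.4%). The median size of the log2 difference was 0.20 for the 7 genes and 0.66 for all genes tested. On the TPM scale, which rescales each library to one sum, QKI and CTNND1 passed with log2 differences of 1.05 and 1.03, and 2 of 7 genes were then called. That scale also moved the median log2 difference of all genes from 0.12 to 0.30.

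ESRP1 and ESRP2 were abundant in both lines. ESRP1 (gene 54845), on chromosome 8 at 95653364 to 95719694, had 47.8 FPKM in H2087 (interval 46.8 to 48.8, 8566 counts) and 54.5 FPKM in H596 (53.5 to 55.5, 11549 counts). The intervals did not overlap, and the log2 difference was 0.18, H596 minus H2087. This difference was 0.06 with TMM scaling and 0.07 when centred on the median of all genes. ESRP2 (gene 80004), on chromosome 16 at 68262450 to 68270136, had 19.3 FPKM in H2087 (18.7 to 19.96, 3726 counts) and 19.5 FPKM in H596 (19.0 to 20.1, 4458 counts). Its intervals overlapped, and its log2 difference of 0.01 changed sign to -0.11 with TMM scaling and to -0.10 when centred on the median of all genes. Per length, ESRP1 exceeded ESRP2 by 2.47-fold in H2087 and 2.79-fold in H596.

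RBFOX2 (gene 23543), on chromosome 22 at 36134781 to 36424585, had 14.6 FPKM in H2087 (14.2 to 15.0, 4817 counts) and 16.8 FPKM in H596 (16.4 to 17.3, 6577 counts). The higher value was in H596 and the intervals did not overlap, with a log2 difference of 0.20. This difference was 0.08 with TMM scaling and also 0.08 when centred on the median of all genes. QKI (gene 9444), on chromosome 6 at 163835675 to 163999628, had 4.29 FPKM in H2087 (4.10 to 4.48, 2042 counts) and 8.25 FPKM in H596 (8.01 to 8.49, 4599 counts). QKI was the lowest of the 7 genes in both libraries and was 1.92-fold higher in H596. The summed FPKM of ESRP1 and ESRP2 exceeded that of RBFOX2 and QKI by 3.56-fold in H2087 and 2.95-fold in H596.

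Among the target genes, CD44 was higher in H2087, CTNND1 was higher in H596 and the ENAH intervals overlapped. CD44 (gene 960), on chromosome 11 at 35160417 to 35253949, had 43.4 FPKM in H2087 (42.6 to 44.3, 10920 counts) and 29.0 FPKM in H596 (28.4 to 29.6, 9025 counts), 1.496-fold higher in H2087. CTNND1 (gene 1500), on chromosome 11 at 57529234 to 57586652, had 69.7 FPKM in H2087 (68.7 to 70.7, 19434 counts) and 126 FPKM in H596 (124 to 127, 41503 counts), 1.80-fold higher in H596. ENAH (gene 55740), on chromosome 1 at 225674532 to 225840845, had 9.74 FPKM in H2087 (9.50 to 9.98, 6142 counts) and 10.1 FPKM in H596 (9.88 to 10.3, 7539 counts). The log2 difference of ENAH, 0.05, changed sign with TMM scaling (-0.08) and with centring (-0.07).

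The makeup of the transcripts was compared next. For each gene, the share of a transcript is its percent of the summed FPKM of all listed transcripts of the gene. ESRP2 had 1 listed transcript, NM_024939, which held 100% in both libraries, so 6 genes could be compared. The main transcript, the one with the largest share, changed in 1 of 6 genes, RBFOX2, against 16.5% of the 7248 genes with at least 2 transcripts and a summed FPKM of at least 1 in both libraries. A transcript share moved by 20 percentage points or more in 2 of 6 genes, CD44 and QKI, against 24.5% of the same 7248 genes. The largest move was 39.0 points in CD44, 21.2 in QKI, 17.98 in ENAH, 17.2 in RBFOX2, 16.1 in CTNND1 and 9.58 in ESRP1. The median over the 6 genes was 17.6 points and that over all 7248 genes was 9.44 points. The number of listed transcripts moves with this measure: the 2526 genes with 2 transcripts, as ENAH has, had a median of 4.34 points, and the 630 genes with 5, as QKI and ESRP1 have, one of 14.7 points. It was 14.6 points over the 176 genes with as many transcripts as CD44 and 16.5 points over the 15 with as many as RBFOX2, close to the move of RBFOX2 itself. With as many as CTNND1 there were 5 genes, itself included, and CTNND1 was their median.

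**Figure D2:**
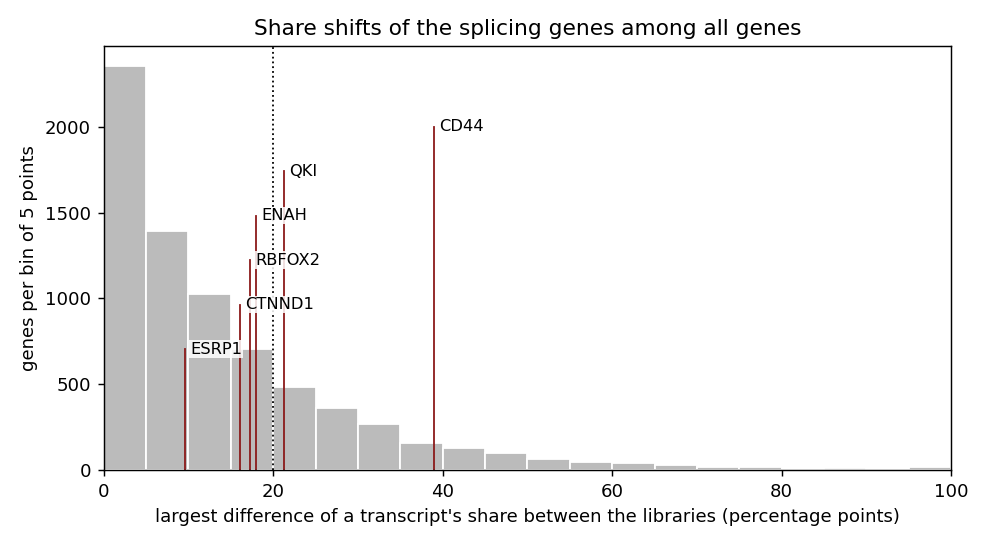
Largest difference of any transcript's share between the libraries, in percentage points (horizontal axis), for 7248 genes in bins of 5 points (grey bars, number of genes). Lines mark the 6 splicing genes and the dotted line the threshold of 20 points, which CD44 at 39.0 and QKI at 21.2 exceed.

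**Figure D3:**
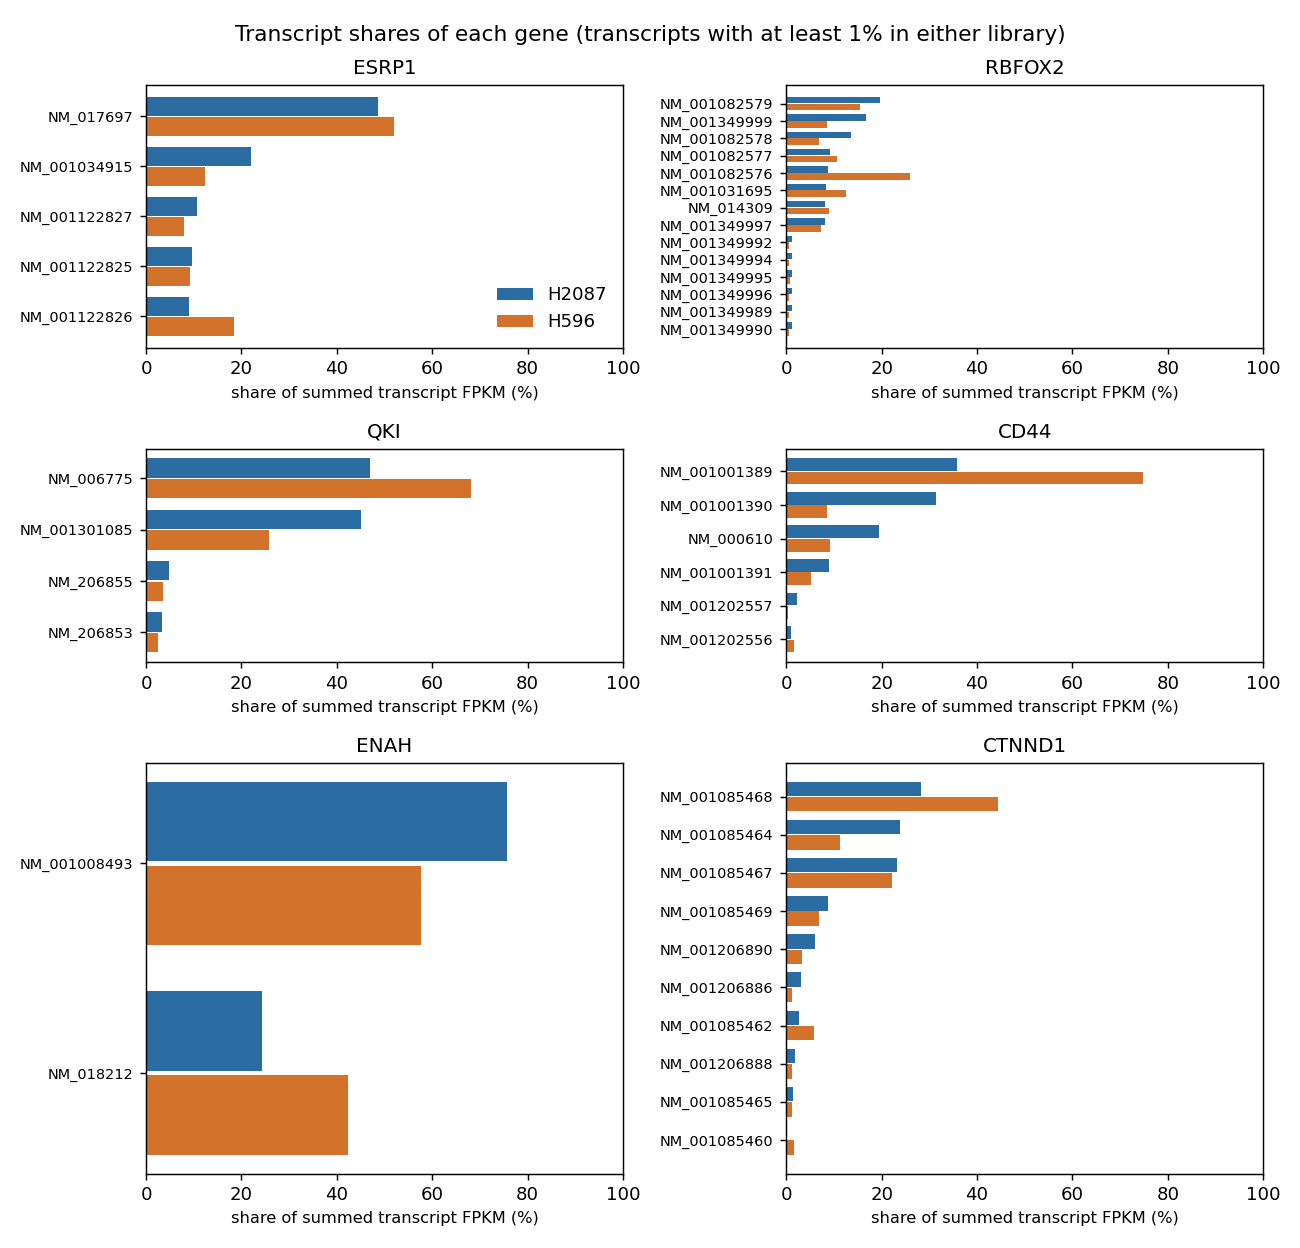
Share of each transcript in the summed transcript FPKM of its gene (percent, horizontal axis) in H2087 (blue) and H596 (orange), for transcripts with at least 1% in either library. In CD44, NM_001001389 stands at 35.7% in H2087 and 74.8% in H596, and in RBFOX2 the longest bar belongs to a different transcript in each library.

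The forms of a gene share most of their bases, so a split rests on the reads in the few bases that tell the forms apart. Their number was estimated from the mean coverage of the gene, as if every transcript held these bases. The estimate thus exceeds the number of reads inside bases that some transcripts lack. A second interval, the interval over distinguishing reads, was taken from this estimate. It is rough, because reads that cross an exon junction also inform the split and because coverage is uneven. Of the 61 transcripts, 48 matched exactly 1 GENCODE exon chain, namely all 8 of CD44, both of ENAH, 21 of 22 of CTNND1, all 5 of QKI, all 5 of ESRP1, the 1 of ESRP2 and 6 of 18 of RBFOX2.

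ESRP1 kept the same main transcript. NM_017697, which encodes 681 residues, held 48.7% in H2087 (23.3 FPKM) and 52.0% in H596 (28.3 FPKM). NM_001034915, which encodes 677 residues, held 21.95% in H2087 and 12.4% in H596. NM_001122826, which encodes 659 residues, held 8.95% in H2087 and 18.5% in H596. The moves of the latter 2 forms were opposite and of nearly the same size. NM_001122827 (604 residues) held 10.7% and 7.92%, and NM_001122825 (608 residues) held 9.66% and 9.15%, in H2087 and H596.

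Grouped by exon, an ESRP1 exon of 151 bases was held by 79.6% of the gene in H2087 and 82.9% in H596. An exon of 110 bases was held by 70.7% in H2087 and 64.4% in H596. A donor site that lengthens another exon by 12 bases was used by 58.4% in H2087 and 61.2% in H596. The intervals over distinguishing reads overlapped for each of these, and for the 12 bases they rested on 27 and 37 reads and ran from 40.7% to 75.5% in H2087 and from 46.1% to 75.9% in H596.

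RBFOX2 differed in where its transcripts began. The gene lies on the minus strand, and its 18 transcripts began at 3 positions. Transcripts from the start farthest upstream, at base 36424585, held 50.0% in H2087 and 31.1% in H596. Those from the start farthest downstream, at base 36236517, held 42.6% in H2087 and 65.4% in H596. Those from the start between them, at base 36357720, held 7.41% in H2087 and 3.53% in H596. The intervals over distinguishing reads were 43.0% to 56.5% and 26.1% to 36.8% for the upstream start and 35.8% to 49.6% and 59.7% to 71.0% for the downstream start, without overlap. The upstream and downstream starts give proteins with different N-termini.

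NM_001082579, from the upstream start, was the main RBFOX2 transcript in H2087 with 19.7% and held 15.5% in H596. NM_001082576, from the downstream start, held 8.72% in H2087 (1.27 FPKM) and was the main transcript in H596 with 26.0% (4.37 FPKM), a 3.44-fold higher level. No interval over distinguishing reads was made for single RBFOX2 transcripts, so the change of main transcript was not checked in this way. NM_001349999 (16.8% and 8.61%) and NM_001082578 (13.5% and 6.90%) of the upstream start had lower shares in H596. From the downstream start, NM_001031695 (8.43% and 12.6%) and NM_001082577 (9.09% and 10.7%) had higher shares in H596, NM_014309 held 8.18% and 8.94%, and NM_001349997 held 8.17% and 7.23%. The 6 transcripts above 1 count from the start between them held from 1.11% to 1.29% each in H2087 and from 0.488% to 0.728% in H596. NM_001349998 had 1 count in H2087 and 2 in H596, and NM_001349982, NM_001349983 and NM_001349991 had 0 counts in both. Among the 4 matched transcripts of the downstream start, the 40-base exon was held by 49.8% in H2087 and 66.3% in H596. If all 4 held this exon, it would hold 10 and 22 reads at their mean coverage. The intervals over these reads, 23.7% to 76.3% and 47.3% to 83.6%, overlapped.

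QKI shifted between forms that differ by very few bases. NM_006775 encodes QKI-5, the nuclear form of 341 residues, and held 46.9% in H2087 (2.01 FPKM) and 68.1% in H596 (5.62 FPKM). NM_001301085, of 333 residues, held 45.1% in H2087 (1.93 FPKM) and 25.8% in H596 (2.12 FPKM). The level of the first was thus 2.80-fold higher in H596 and that of the second 1.10-fold higher. These forms differ by 24 bases at an exon start. If every transcript held this stretch, it would hold 5 reads in H2087 and 11 in H596 at mean coverage. All listed forms but NM_001301085 hold this stretch, 54.9% of the gene in H2087 and 74.2% in H596. The interval over distinguishing reads of this share ran from 23.1% to 88.2% in H2087 and from 43.4% to 90.3% in H596. The shift of QKI was thus not resolved by reads in these bases. NM_206855 held 4.73% and 3.54% and NM_206853 held 3.30% and 2.61%, and together these forms of 319 residues held 8.02% in H2087 and 6.15% in H596. NM_206854, of 325 residues, had 0 counts in both libraries. The last exon used by NM_006775 and NM_001301085 together held 92.0% in H2087 and 93.8% in H596.

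CD44 had the largest shift of the 6 genes compared. Its variable exons v2 to v10 encode an extracellular stretch that the standard form lacks, and v3 carries a site for heparan sulfate chains. NM_001001389, with v3 to v10 and 699 residues, was the main form in both libraries and held 35.7% in H2087 (15.5 FPKM) and 74.8% in H596 (21.7 FPKM). NM_001001390, with v8 to v10 and 493 residues, held 31.5% in H2087 (13.7 FPKM) and 8.49% in H596 (2.47 FPKM), a level 5.54-fold higher in H2087. NM_000610, with v2 to v10 and 742 residues, held 19.4% in H2087 (8.42 FPKM) and 9.13% in H596 (2.65 FPKM), 3.17-fold higher in H2087. The v3 to v10 form had a 1.40-fold higher FPKM in H596, while the gene as a whole was lower there.

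The standard form of CD44 without variable exons, NM_001001391 with 361 residues, held 9.01% in H2087 (3.91 FPKM) and 5.24% in H596 (1.52 FPKM). NM_001202557, which ends before the others, held 2.23% in H2087 (105 counts) and 0.255% in H596 (10 counts). NM_001202556, of 340 residues, held 0.938% and 1.55%, and NM_001001392, of 139 residues, held 0.490% and 0.568%. NM_001202555, with v10 alone and 429 residues, held 0.754% in H2087 (76 counts) and had 0 counts in H596. All forms without a variable exon together held 12.7% in H2087 and 7.61% in H596, so forms with variable exons made up most of CD44 in both libraries.

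By exon, v2 was held by 19.4% of CD44 in H2087 and 9.13% in H596, with intervals over distinguishing reads of 15.1% to 24.5% and 5.78% to 13.5%. Exons v3 to v7 were held by 55.1% in H2087 and 83.9% in H596. They have one value, because the listed transcripts contain these 5 exons together or not at all, and other combinations could not be seen. Over the 618 bases of these exons the intervals were 52.4% to 57.8% (1287 reads) and 81.5% to 86.0% (1019 reads), without overlap. Exons v8 and v9 were held by 86.6% in H2087 and 92.4% in H596, and v10 by 87.3% and 92.4%, with overlapping intervals for each of the 3 exons taken alone. The share with any variable exon was also 87.3% and 92.4%. Over all 1143 bases of these exons its intervals, 86.0% to 88.6% and 91.1% to 93.5%, did not overlap. They are too narrow, because the bases of v2 to v7 do not tell the v8 to v10 form from the standard form. The difference was 28.8 points for v3 to v7, 5.81 points for v8 and v9 and 5.05 points for v10.

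**Figure D4:**
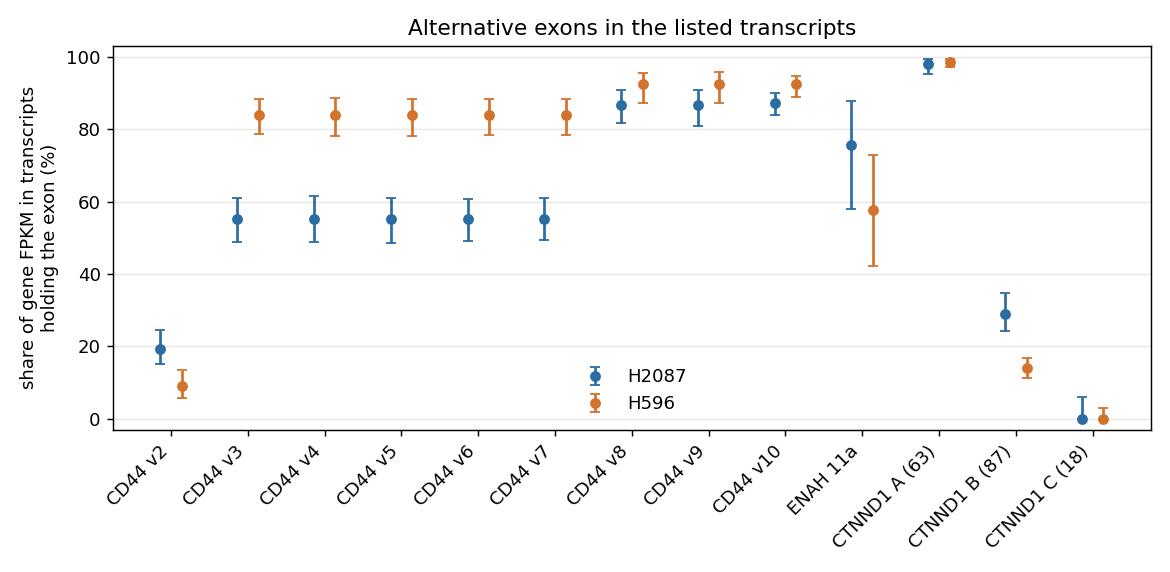
Share of the gene's FPKM in transcripts that hold an exon (percent, vertical axis) for the CD44 exons v2 to v10, ENAH exon 11a and the CTNND1 exons A, B and C, in H2087 (blue) and H596 (orange). Bars are the rough 95% intervals over distinguishing reads, which are apart for v2 to v7 and CTNND1 exon B and overlap for v8 to v10, ENAH exon 11a and CTNND1 exons A and C.

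By estimated share, the form with exon 11a was the larger ENAH form in both libraries. NM_001008493, which holds the exon and encodes 591 residues, had 75.6% in H2087 (7.36 FPKM, 4649 counts) and 57.6% in H596 (5.82 FPKM, 4353 counts). NM_018212, which skips it and encodes 570 residues, had 24.4% in H2087 (2.38 FPKM, 1493 counts) and 42.4% in H596 (4.28 FPKM, 3186 counts). The skipped form was 1.80-fold higher in H596, while the summed level of both was nearly equal. Over the deposited counts, the share with exon 11a had intervals of 74.6% to 76.7% and 56.6% to 58.9%. However, the exon is 63 of 13174 bases (0.478%). If every ENAH transcript held it, it would hold 29 reads in H2087 and 36 in H596 at mean coverage. Over these reads the intervals were 57.9% to 87.8% and 42.2% to 72.9% and overlapped. The interval of H596 also held values at which the skipped form would be the larger one.

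CTNND1 was dominated by short p120 forms with exon A. Its 22 transcripts combine several start codons with the exons A (63 bases), B (87 bases) and C (18 bases). Start codons 1, 55 and 102 of the longest form define the p120 isoforms called 1, 2 and 3, of which isoform 1 is known from mesenchymal and isoform 3 from epithelial cells. Transcripts with the isoform 3 start held 91.6% in H2087 and 89.1% in H596. Those with the isoform 1 start held 2.78% in H2087 (1.94 FPKM) and 7.44% in H596 (9.35 FPKM). Those with the isoform 2 start held 5.64% in H2087 (3.93 FPKM) and 3.47% in H596 (4.37 FPKM).

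Exon B of CTNND1 was held by 29.1% in H2087 and 13.9% in H596. The intervals over distinguishing reads were 24.3% to 34.7% (291 reads) and 11.4% to 16.8% (621 reads), without overlap. In FPKM the forms with exon B were close, at 20.3 in H2087 and 17.5 in H596, while forms with exon A alone had 49.4 FPKM in H2087 and 108 FPKM in H596. The higher CTNND1 level of H596 thus lay in forms without exon B. Exon A was held by 97.97% in H2087 and 98.6% in H596. Exon C was held by 0.0454% in H2087 and 0.0047% in H596, and 10 and 3 counts, respectively, lay behind these shares.

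Among single CTNND1 transcripts, NM_001085468 was the main one and held 28.3% in H2087 (19.7 FPKM) and 44.5% in H596 (55.9 FPKM), a 2.83-fold higher level. NM_001085467 held 23.2% and 22.2%, NM_001085469 held 8.80% and 6.85%, and NM_001206890 held 5.96% and 3.20%. These 4 transcripts differ outside the coding sequence and encode the same 832 residues, which together held 66.3% in H2087 and 76.7% in H596. NM_001085464, which adds exon B and encodes 861 residues, held 23.9% in H2087 and 11.3% in H596. When transcripts that encode proteins of the same length were summed, this was the largest move in the gene, by 12.7 points lower in H596.

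NM_001085462, of the isoform 1 start, held 2.74% in H2087 (554 counts) and 5.77% in H596 (2492 counts), and NM_001085460, which encodes the same 933 residues, had 0 counts in H2087 and held 1.67% in H596 (734 counts). NM_001206889 also had 0 counts in H2087 and held 0.828% in H596 (359 counts). NM_001206886 (3.08% and 1.21%), NM_001206888 (1.87% and 1.14%), NM_001085465 (1.34% and 1.12%) and NM_001206887 (0.686% and 0.293%) each had the lower share in H596. NM_001085458, the longest form, had 10 counts in H2087 and 3 in H596, and NM_001206891 had 2 and 0 counts. The remaining 8 of the 22 transcripts had 0 counts in both libraries.

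Genes around the regulators were described with lists that hold none of the 7 genes, by the same 2-fold rule. Of 41 other splicing regulators, 34 were tested, and 5 were at least 2-fold higher and 5 at least 2-fold lower in H596, with a median log2 difference of -0.08. These 10 of 34 stand beside 32.4% of all genes tested, whose median was 0.12. RBPMS had 4.32 FPKM in H2087 and 62.0 FPKM in H596, and MBNL3 had 1.61 and 7.25 FPKM. KHDRBS3 had 8.59 FPKM in H2087 and 0.036 FPKM (5 counts) in H596, and the neuronal regulator NOVA1 had 0 counts in H2087 and 4.08 FPKM in H596. RBPMS, at 14.4-fold, thus differed more than any of the 4 regulators of the 7 genes.

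Of 30 further genes known as ESRP targets, all were tested, and 9 were at least 2-fold higher and 6 lower in H596, with a median log2 difference of 0.62. These 15 of 30 stand beside the 32.4% of all genes, with their median of 0.12. FGFR3 had 0.087 FPKM in H2087 and 49.6 FPKM in H596, and the integrin subunit ITGA6 had 8.62 and 90.2 FPKM. The kinesin KIF13A had 4.83 FPKM in H2087 and 32.0 FPKM in H596. FGFR2, whose exons IIIb and IIIc are the classical switch of ESRP proteins, had 0.205 FPKM (46 counts) in H2087 and 17.6 FPKM (4271 counts) in H596. In H596 its epithelial IIIb transcript NM_022970 had 10.1 FPKM (2663 counts), and the IIIc transcript NM_000141 had 0 counts. NM_022970 held 57.4% of the gene there, and NM_001144917 (4.13 FPKM, 23.5%), NM_001144919 (2.23 FPKM, 12.7%) and NM_001144913 (0.701 FPKM, 3.98%), whose IIIb or IIIc exon was not examined, held most of the rest. In H2087 the 46 counts all lay in NM_022970.

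Of the 30 ESRP target genes, 26 had shares that could be compared. A share moved by 20 points or more in 10 of the 26, against 24.5% of all genes compared. The main transcript changed in 5 of the 26, against 16.5%. Share moves also go with the number of listed transcripts, which was not matched in this comparison. In MAGI1, NM_001033057 held 96.3% in H2087 and had 0 counts in H596. In MAP3K7, NM_145331 held 74.6% in H2087 and 33.0% in H596. In PLEKHA1, NM_001001974 held 93.0% and 53.7%, and in MLPH, NM_001042467 held 66.4% and 28.8%. No exons were matched and no intervals over distinguishing reads were made for these genes. Whether their transcripts differ at an exon that ESRP proteins act on was not examined.

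Partners of the target genes were mixed. Of 11 genes related to CD44, 7 were tested, and 2 were at least 2-fold higher and 1 lower in H596 (32.4% of all genes were called). The membrane protease MMP14 had 7.44 FPKM in H2087 and 48.4 FPKM in H596, and the cytoskeletal linker RDX had 27.3 and 76.3 FPKM. NF2, which encodes merlin, had 26.7 FPKM in H2087 and 6.47 FPKM in H596, and the hyaluronan receptor HMMR had 27.4 and 17.6 FPKM. Of 16 partners of ENAH and CTNND1, 4 were at least 2-fold higher and 2 lower in H596, again beside 32.4% of all genes. The p120 relative CTNND2 had 0 counts in H2087 and 22.9 FPKM in H596, and N-cadherin, CDH2, had 0 counts and 4.17 FPKM. The Abl interactor ABI1 had 51.6 FPKM in H2087 and 13.9 FPKM in H596, and LPP had 10.3 and 3.36 FPKM.

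Both lines carried epithelial markers, and the mesenchymal markers were split between them. Of 8 epithelial markers, 0 were under 1 FPKM in either library, and E-cadherin, CDH1, which p120 binds, had 52.3 FPKM in H2087 and 59.6 FPKM in H596. Against 32.4% of all genes, 1 of the 8 was at least 2-fold higher in H596 (KRT19, 561 and 2183 FPKM) and 4 lower, among them EPCAM (375 and 65.0 FPKM), KRT18 (3607 and 234 FPKM) and KRT8 (2493 and 536 FPKM). Of 10 mesenchymal markers, 7 were under 1 FPKM in each library. VIM had 51.8 FPKM in H2087 and 0 counts in H596, FN1 had 55.1 and 1.88 FPKM, and DCN had 0 counts in H2087 and 9.77 FPKM in H596. The summed level of the mesenchymal list was 111 FPKM in H2087 and 16.8 FPKM in H596. Their part in the splicing differences was not tested. Leukocyte markers PTPRC and CD3E had 0 counts in both libraries, and of the 6 on that list only CD68 was above 1 FPKM (128 and 25.6). Of 4 endothelial markers, KDR alone was above 1 FPKM, in H2087 (2.16 and 0.201 FPKM).

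Of 13 transcription factors that act on ESRP genes or on the epithelial or mesenchymal state, 10 were tested. Of these, 6 were at least 2-fold higher and 0 lower in H596, with a median log2 difference of 1.40. Among all genes, 32.4% were called in either direction, and their median was 0.12. The factors EHF (6.93 FPKM in H2087 and 62.1 in H596), KLF5 (15.8 and 113) and GRHL3 (0.935 and 11.5) were higher in H596. SNAI2, known as an inducer of the mesenchymal state, had 0.890 FPKM in H2087 and 27.9 FPKM in H596. TWIST1, also among the 6, had 0 counts in H2087 and 2.22 FPKM (210 counts) in H596. ZEB1, a known repressor of ESRP1, had 0.771 FPKM (247 counts) in H2087 and 0 counts in H596, and ZEB2 had 0 and 2 counts. SNAI1 had 1.07 FPKM in H2087 and 0.374 FPKM in H596. ZEB1, ZEB2 and SNAI1 did not reach a mean FPKM of 1 and were not tested. ESRP1 and ESRP2 themselves differed by less than 2-fold beside these values.

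With 2 libraries, likeness of expression only says which genes had nearly the same pair of levels. It was measured as the distance between genes over both values of log2(FPKM + 1). Nearest to ESRP1 were UQCR11 (distance 0.038), RBM42 and SUB1. Nearest to ESRP2 were ERCC3 (0.0088), CEBPZOS and KANSL2. ARFIP2 (0.021), MPP5 and ADPRHL2 were nearest to RBFOX2. For QKI, these were CEP78 (0.020), LNPEP and RTL8B. For CD44, they were PRELID3B (0.054), CD320 and MAD2L2. ENAH lay nearest to PPP6R2 (0.017), CCDC82 and PPP1R26, and CTNND1 to CALM3 (0.023), EID1 and UBA1.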

How the data were processed

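RNA-seq data of 2 libraries were used, 1 each of untreated H2087 and H596 cells. The submitters' processing notes name bcl2fastq 1.8.4, Trimmomatic, HISAT2 2.0.5, StringTie 1.3.3b and hg19. The estimated counts and the FPKM values were deposited by the authors per gene and per RefSeq transcript. How the whole-number counts were derived is not given in the sources used here, nor whether reads were paired. Counting both mates would make the intervals too narrow.

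Differences are those of log2(FPKM + 1) where the mean FPKM of a gene reached 1, and changes of low genes are understated. Shares are percentages of the summed transcript FPKM. Intervals are 95% Wilson intervals (scipy 1.17.1). No test was computed. The rules were tested on simulated data, with counts drawn for each transcript. The simulation held no error from dividing reads between forms that share exons, so it does not test the shares for that error. Alternatives were another pseudocount, filter, threshold or unit, TMM scaling (edgeR 4.0.16), count-based shares, and summing transcripts by protein length. Transcript lengths in bases, another deposited column, served to match GENCODE release 44 exon chains on GRCh37. From each list, the 4 genes with the largest differences among those tested were named, and from the ESRP targets also the 4 with the largest share moves. A few others were named outside this rule, such as TWIST1, ZEB1, ZEB2 and SNAI1. The genes and lists were chosen with earlier results of these data known.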

Additional observations from a re-analysis of the deposited data

How the results depend on the processing

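No paired analysis was possible because H2087 and H596 had 1 library apiece, and neither could be left out. On the TPM scale 2 of the 7 genes were called at 2-fold instead of 0, QKI and CTNND1, and 37.5% of all genes were called. At a threshold of 10 points 5 of 6 genes had a share move (48.4% of all genes), and at 30 points 1 did, CD44 (12.8%). With a summed FPKM of at least 10 in both libraries 4 genes could be compared and 1 was called (17.2% of 3491 genes), since QKI was not tested. These changes follow from how each setting is built. RBFOX2 was the gene with another main transcript under each alternative run. These alternatives used the same division of reads between transcripts and so do not check it. Of the log2 differences of the 7 genes, 4 changed sign, those of ESRP2 and ENAH with TMM scaling and with centring. Shares of estimated counts in place of FPKM moved a transcript share by at most 3.06 points. The intervals over distinguishing reads and the summing of transcripts by protein length were added after the data were seen. Few reads lie in the bases that tell apart the ENAH forms, the main QKI forms, the ESRP1 donor sites and the RBFOX2 forms with and without the 40-base exon.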
